A study of Arabidopsis thaliana with 4 samples.

Results

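Transcripts of 5 Arabidopsis thaliana genes tied to starvation and to the breakdown of amino acids are described here: GAT1_2.1 (AT1G15040), AKINBETA1 (AT5G21170), MCCB (AT4G34030), AT4G33150 and ATL8 (AT1G76410). They were chosen from earlier results of these same arrays, by their higher signal in the exo70A1-2 mutant, so their own difference between the genotypes is given as a description, without a test. A probe set is a group of short probes that reads the transcripts of 1 gene or, for some probe sets, of several. The 5 genes have 6 probe sets that carry a single gene name, out of 22746 on the array that are not controls and out of 13356 genes so named. The arrays were Affymetrix ATH1 arrays with RNA of whole seedlings, 2 from wild-type Col-0 and 2 from exo70A1-2. The mutant carries the exo70A1-2 allele of EXO70A1 in the Col-0 strain, and the protein EXO70A1 belongs to the exocyst, which holds secretory vesicles at the cell surface before they fuse. Per the labels, seed of both genotypes was kept in cold water for 3 days. The seedlings were 1 week old and stood upright on plates of 75 seeds with 1.6% agar and Murashige and Skoog basal salts, at 22 °C and 65% humidity in constant light. The labels do not mention sugar in the medium, a second allele, how many seedlings made up a sample, or whether replicates were grown apart. The p-values therefore rest on the spread between arrays, which may be technical only.

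Plant cells that run short of sugar, in darkness for example, draw on protein and break its amino acids down in the mitochondrion, where the electrons released feed respiration. The kinase SnRK1 is the energy sensor of this switch, and it is a complex of a catalytic alpha subunit with a beta subunit and a gamma-type subunit. Leucine, isoleucine, valine and lysine are among the amino acids broken down in this setting, and several genes of these pathways are classic genes of dark-treated and senescing leaves.

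Signals are the authors' MAS5 values, on a linear scale on which every array has the same trimmed mean of 100. Array medians lay between 37.3 and 38.8. A signal of 21.9, the 40th percentile of mean signal over the probe sets, served as the dim limit, below which a value is read as near background, and 13648 probe sets whose mean over the 4 arrays reached it were tested. In that test, limma with Benjamini-Hochberg adjustment at 0.05, 1165 probe sets (8.54%) were higher and 1024 (7.50%) lower in exo70A1-2. Of 9 marker genes of shoot, root and root hair 6 had a probe set, all were above the dim limit in both genotypes and 0 passed the test (0 also at an unadjusted p under 0.05 in limma), with log2 differences from -0.16 for the photosynthesis gene RCA to 0.22 for the root hair expansin gene EXPA18. In whole seedlings, a change in the number of cells of a type and a change of RNA per cell cannot be told apart.

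GAT1_2.1 encodes a glutamine amidotransferase, of an enzyme family that takes the amide nitrogen off glutamine. On its brighter probe set, 260741_at, the signal was 4.05 and 2.1 on the Col-0 arrays and 198 and 277 on the exo70A1-2 arrays. Both Col-0 values are near background, while both mutant values lie well above the dim limit. The mean was 3.08 ± 1.38 for Col-0 and 238 ± 56.2 for the mutant (± is the SD of n = 2 arrays throughout). Since Col-0 gives only a bound, the mutant was at least 10.7-fold higher, the mean mutant signal on the log2 scale being set against the dim limit. With the limit at the 30th or the 50th percentile of mean signal, the bound would be 22.7-fold or 6.11-fold. The fitted log2 difference of 6.33 rests on Col-0 values near background and is no estimate of the fold. With 16 added to each signal before the log it was 3.72. The probe set entered the test through its mutant arrays alone.

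The other probe set of GAT1_2.1 did not show a signal in either genotype. On 260743_at the signal was 0.236 and 0.976 in Col-0 and 2.1 and 1.27 in exo70A1-2, under the dim limit on all 4 arrays, and it was not tested. The higher signal of GAT1_2.1 was seen on 1 of its 2 probe sets. In assembly TAIR10.1 the gene overlaps 2 others, AT1G15030 and the long noncoding RNA gene AT1G05147, and which of these stretches each probe set covers was not analysed here.

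**Figure D1:**
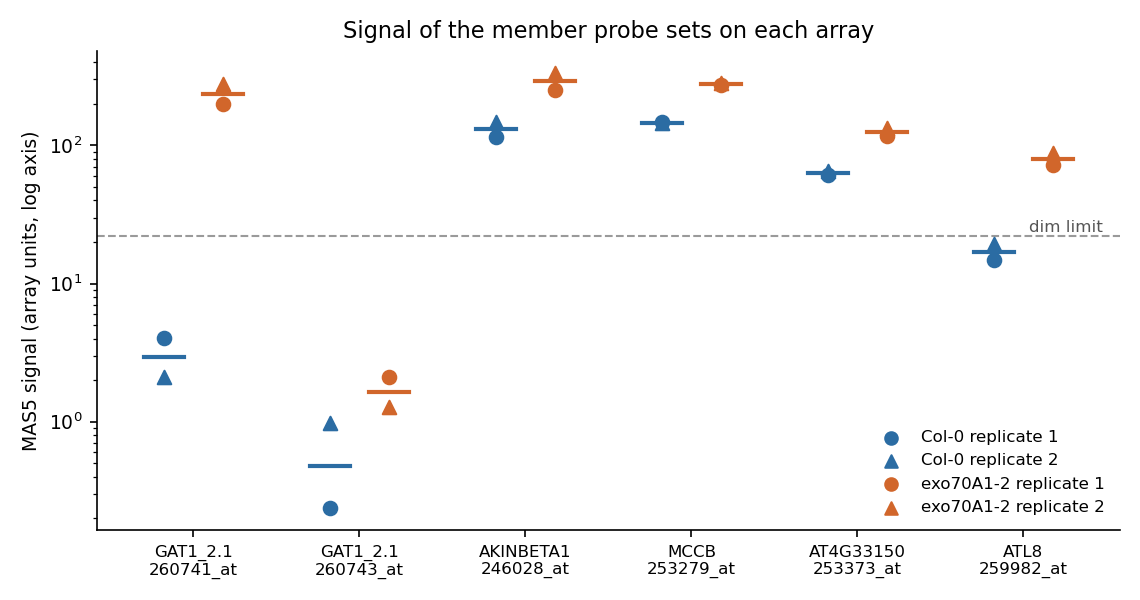
MAS5 signal on a log axis for the 6 probe sets of the 5 genes, with a point for each array (blue Col-0, orange exo70A1-2, circles replicate 1, triangles replicate 2), a bar at the mean on the log scale of each genotype and a dashed line at the dim limit of 21.9. Col-0 lies under the limit for both GAT1_2.1 probe sets and for ATL8, and both genotypes do so on 260743_at.

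AKINBETA1 encodes a beta subunit of SnRK1, the part of the complex that holds the catalytic and regulatory subunits together. Its signal was 115 and 149 on the Col-0 arrays and 254 and 337 on the exo70A1-2 arrays. The genotypes did not overlap, the lower mutant array being 1.71-fold above the higher Col-0 array and the higher mutant array 2.94-fold above the lower Col-0 array. The mean went from 132 ± 24.1 to 295 ± 58.8, a log2 difference of 1.16 or 2.24-fold. On all 5 of the tested probe sets of the 5 genes both mutant arrays lay above both Col-0 arrays, as they did on 30.0% of all tested probe sets, and for the 5 genes their choice fixes this count.

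Of 27 other genes of the SnRK1 complex and of trehalose 6-phosphate metabolism, the sugar signal that SnRK1 responds to, 2 had a probe set of 1 gene, and both encode the other beta-type subunits. Neither passed the test in limma, also at an unadjusted p under 0.05. AT4G16360 (KINbeta2) went from 112 ± 1.52 in Col-0 to 102 ± 2.36 in the mutant, a log2 difference of -0.13 with a standard error of 0.14. AT2G28060 (KINbeta3) had a log2 difference of 0.23 with a standard error of 0.16. Whether either differs from AKINBETA1 in its response was not tested, and the catalytic subunits were not analysed here.

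MCCB encodes the beta subunit of 3-methylcrotonyl-CoA carboxylase, a mitochondrial enzyme of leucine breakdown that carries biotin on its alpha subunit. Its signal was 146 and 145 in Col-0 and 274 and 281 in exo70A1-2. This was the tightest pair of groups among the 5 genes, and the fold of a mutant array over a Col-0 array ran from 1.87 to 1.93. The mean went from 146 ± 0.765 to 277 ± 5.06, a log2 difference of 0.93.

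The transcripts for the partner subunit of MCCB and for the enzyme before it rose in the mutant. MCCA, which encodes the alpha subunit of the same carboxylase, had signals of 70.5 and 87.1 in Col-0 and 243 and 356 in exo70A1-2, and rose by 1.91 on the log2 scale (SE 0.20, limma, adjusted p = 0.000676). IVD, which encodes the isovaleryl-CoA dehydrogenase that acts just before the carboxylase, had signals of 73.4 and 94.6 in Col-0 and 216 and 305 in exo70A1-2, and rose by 1.62 (SE 0.20, adjusted p = 0.00132). In both, every mutant array stood above every Col-0 array by more than the gap between replicates. ETFQO encodes the oxidoreductase that passes electrons from such dehydrogenases to ubiquinone. It went from 56.7 ± 11.7 to 97.2 ± 20.5, a rise of 0.78 (SE 0.21, adjusted p = 0.0369). That call was lost in 4 of 11 alternatives, among them without exo70A1-2 replicate 2 (adjusted p = 0.236) and without Col-0 replicate 1 (0.0838), with a range of 0.000386 to 0.236 over all of them.

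Of 20 listed genes of branched-chain amino acid breakdown other than MCCB 11 were tested, and these 3 rose while 0 fell (limma, 5 and 2 at an unadjusted p under 0.05). Over all named genes tested, 7.58% rose and 6.54% fell at the adjusted threshold, and their share at an unadjusted p was not counted. The remaining 8 ran from -0.54 to 0.52 on the log2 scale, 6 of them above 0. The lowest, AT5G09300, went from 42.5 ± 6.76 in Col-0 to 29.3 ± 5.52 in the mutant, without overlap (adjusted p = 0.141). AT2G26800, listed here for hydroxymethylglutaryl-CoA lyase, the last step of leucine breakdown, stood at 0.52 (adjusted p = 0.0918). Without Col-0 replicate 2 it passed, at 0.74 (adjusted p = 0.0104), and without Col-0 replicate 1 it stood at 0.30 (adjusted p = 0.284), with a range of 0.00283 to 0.447 over its alternatives. ALDH6B2, an aldehyde dehydrogenase of valine breakdown, stood at 0.35. The electron carriers ETFALPHA and ETFBETA, which hand electrons to ETFQO, stood at 0.11 and 0.10, and D2HGDH, a hydroxyglutarate dehydrogenase that uses the same carriers, at 0.27. AT4G16800, listed as an enoyl-CoA hydratase, stood at -0.33. The median log2 difference of the 11 genes was 0.35, against 0.0035 over 7231 named genes.

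AT4G33150 encodes the bifunctional enzyme LKR/SDH, which joins lysine to 2-oxoglutarate and then splits the product, the first steps of lysine breakdown. Its signal was 61.0 and 65.1 in Col-0 and 118 and 134 in exo70A1-2. Both mutant arrays lay above both Col-0 arrays, the fold between pairs of arrays running from 1.81 to 2.20. The mean went from 63.0 ± 2.88 to 126 ± 11.4, a log2 difference of 1.00. ALDH7B4, an aldehyde dehydrogenase placed after LKR/SDH in the pathway, had signals of 334 and 308 in Col-0 and 639 and 593 in exo70A1-2, and rose by 0.94 (SE 0.11, limma, adjusted p = 0.00132). AT5G52810 (SARD4), of pipecolic acid synthesis from lysine, stood at -0.28 and did not pass. These 2 were the tested genes among 3 others listed for lysine.

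Of 29 listed genes for the breakdown of other amino acids 7 were tested, with 2 higher and 1 lower in exo70A1-2, beside 7.58% higher and 6.54% lower over all named genes. AT5G38710, listed for proline dehydrogenase, had signals of 16.2 and 25.7 in Col-0 and 60.6 on both mutant arrays, a rise of 1.57 (SE 0.25, adjusted p = 0.00437) with 1 Col-0 array dim. Its Col-0 mean of 20.9 is under the dim limit, so its mutant arrays brought it into the test. MGL, methionine gamma-lyase, which breaks methionine down toward isoleucine, had signals of 18.5 and 21.5 in Col-0 and 46.7 and 56.8 in the mutant, at least 2.35-fold higher (adjusted p = 0.00428), and it entered the test through its mutant arrays alone. AT1G11860, listed for a subunit of the glycine decarboxylase complex of photorespiration, fell by 0.64 (SE 0.093, adjusted p = 0.00302), from 2955 ± 67.4 to 1895 ± 52.2. The urea-splitting enzyme gene URE stood at 0.34, the ornithine aminotransferase gene DELTA-OAT at 0.28, and the asparaginase genes ASPGB1 and ASPGA1 at 0.14 and -0.098, and none of these passed. For the 3 breakdown lists together, 6 of 20 tested genes were higher and 1 was lower, against 7.58% and 6.54% of all named genes. MGL and AT5G38710 are among the 6 and were tested only because their mutant arrays are bright, so this count is not free of that selection. The median log2 difference of the 20 was 0.31. None of the other 15 listed genes of ammonium and amide nitrogen, the group GAT1_2.1 was put in, had a probe set of 1 gene.

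**Figure D2:**
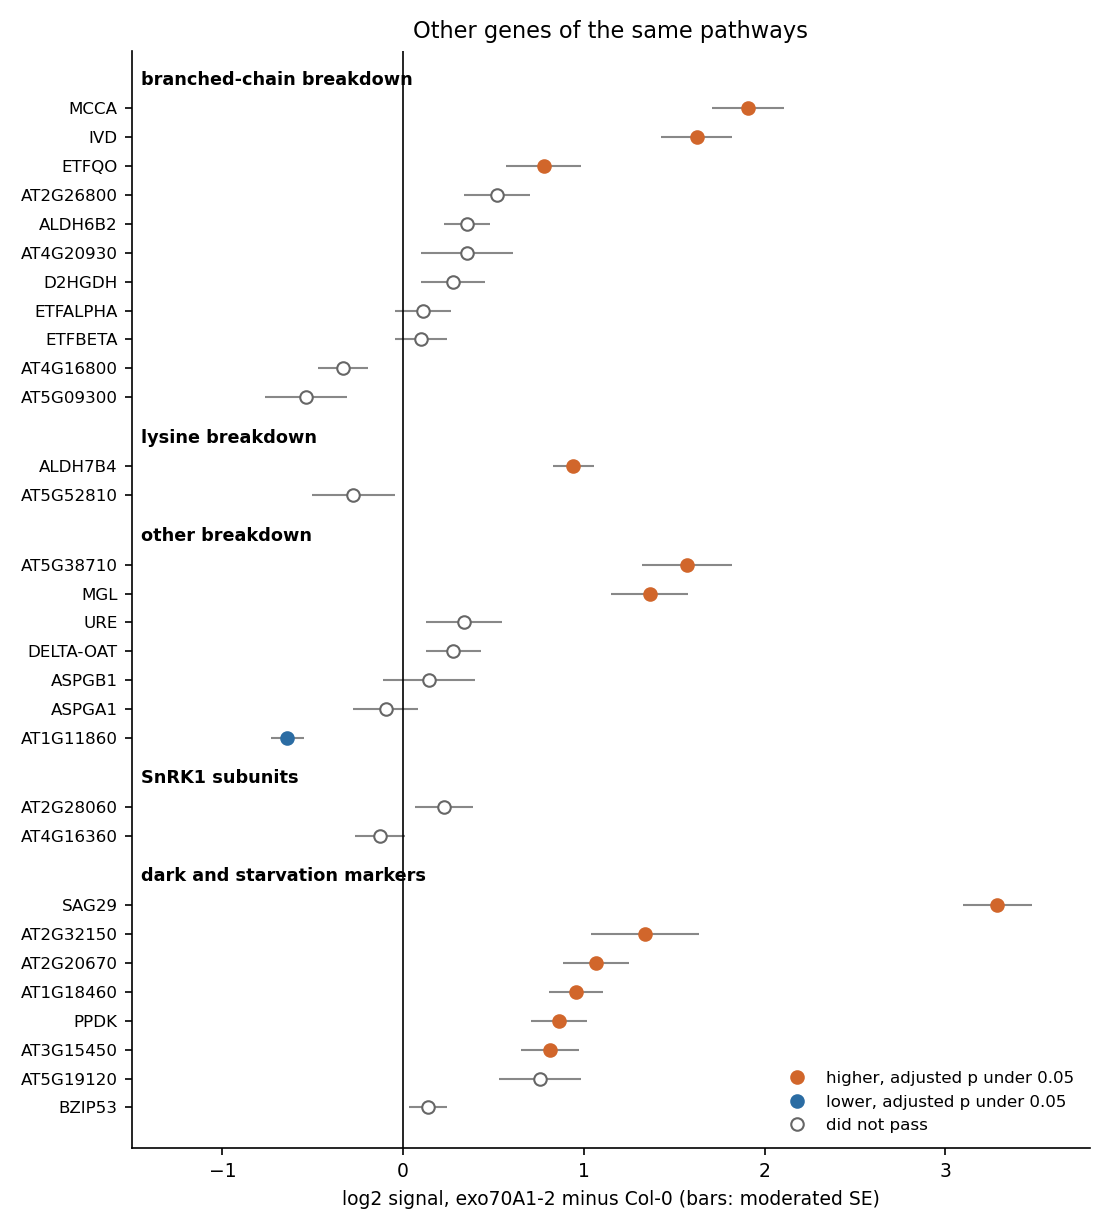
Log2 signal in exo70A1-2 minus Col-0 for the 30 tested listed genes other than the 5 described and the seedling markers, with bars for the moderated standard error, filled points for genes that passed (orange higher, blue lower) and open points for those that did not. MCCA and IVD lead the breakdown lists, AT1G11860 is the 1 gene that was lower, and MCCA, IVD and ALDH7B4, which are also dark markers, are drawn once.

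ATL8 encodes a RING-type ubiquitin ligase of the ATL family and is known as a gene induced by sugar starvation. Its signal was 14.9 and 19.3 on the Col-0 arrays and 72.1 and 88.7 on the exo70A1-2 arrays. Both Col-0 arrays were near background and both mutant arrays were bright, so the mutant was at least 3.65-fold higher. The mean signal was 17.1 ± 3.13 in Col-0 and 80.4 ± 11.7 in exo70A1-2. The fitted log2 difference was 2.24, and 1.54 with 16 added to each signal. As for GAT1_2.1, the probe set entered the test through its mutant arrays alone. Other ATL genes were found only by a symbol or synonym of ATL and a number, on probe sets of 1 gene. Family members under other names or on unnamed probe sets were therefore not looked at. The genes found, ATL5, ATL63 and ATL4H, had mean signals of 22.7, 9.21 and 20.9 in Col-0. In exo70A1-2 the means were 17.5, 10.4 and 21.0, and none of these genes was bright enough to be tested.

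Of 38 other genes listed as markers of darkness or sugar starvation, 11 were tested. At the adjusted threshold 9 rose and 0 fell (limma), against 7.58% and 6.54% of all named genes. At an unadjusted p under 0.05 in limma 10 were higher and 0 lower, and the share of all named genes there was not counted. The median log2 difference of the 11 was 0.95. The list was drawn up with earlier results of these arrays known, and without SAG29, which those results had named, 8 of 10 rose. MCCA, IVD and ALDH7B4 are also in the breakdown lists, and 6 of the 8 others rose. SAG29, a sugar transporter gene of senescing leaves, was at least 5.34-fold higher, at 12.0 ± 0.159 in Col-0 and 117 ± 11.0 in exo70A1-2. SAG29 too entered the test through its mutant arrays alone. PPDK, pyruvate orthophosphate dikinase, which makes phosphoenolpyruvate, went from 91.6 ± 3.08 to 167 ± 26.4, a rise of 0.86 (SE 0.15, adjusted p = 0.00765). Without exo70A1-2 replicate 2 its adjusted p was 0.0600, the highest of its alternatives, the lowest being 2.99e-05.

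The remaining markers that rose have no name in the tables used here. AT2G20670 had signals of 554 and 859 in Col-0 and 1500 and 1393 in exo70A1-2, a rise of 1.07 (SE 0.18). AT1G18460 rose by 0.95 (SE 0.15). AT3G15450, bright in both genotypes at 1827 ± 475 and 3158 ± 218, rose by 0.81 (SE 0.16, adjusted p = 0.0121). AT2G32150 had signals of 165 and 368 in Col-0 and 597 and 654 in the mutant, a rise of 1.34 (SE 0.30, adjusted p = 0.0190) that was 0.76 without Col-0 replicate 1. The calls for AT3G15450 and AT2G32150 ended when the variance prior ignored intensity, at 0.0505 and 0.0560, each the highest of its alternatives, the lowest being 4.06e-07 and 2.31e-07. AT5G19120 stood at 0.76 and did not pass (adjusted p = 0.0550). It passed in 5 of 11 alternatives, which ranged from 1.99e-05 to 0.122, among them without Col-0 replicate 2 (1.99e-05) and without exo70A1-2 replicate 1 (0.0493). Without Col-0 replicate 1 its log2 difference was 0.33 (adjusted p = 0.0692). BZIP53, a transcription factor gene of the low-energy response, stood at 0.14.

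The 2 arrays of a genotype differed for some of these genes and were close for MCCB. In exo70A1-2, replicate 2 was higher than replicate 1 for all 5 genes, by 1.40-fold for GAT1_2.1, 1.33-fold for AKINBETA1, 1.23-fold for ATL8, 1.14-fold for AT4G33150 and 1.03-fold for MCCB. Over the 7231 named genes tested, replicate 2 was the higher in 48.8%, with a median log2 gap of -0.0062. In Col-0, replicate 2 was higher for AKINBETA1 (1.30-fold), ATL8 (1.30-fold) and AT4G33150 (1.07-fold), about level for MCCB and lower for GAT1_2.1, where both values are near background. Among the dark and starvation markers, Col-0 replicate 2 was above replicate 1 for 8 of 11 tested genes, with a median log2 gap of 0.30. Over all named genes tested, Col-0 replicate 2 was above for 49.3%, with a median gap of -0.0038. The Col-0 gap was 1.15 for AT2G32150 and 0.85 for AT5G19120. In exo70A1-2, replicate 2 was above for 7 of the 11 markers, with a median gap of 0.14. For the 3 breakdown lists together, replicate 2 was above for 9 of 20 genes in Col-0 and 11 of 20 in exo70A1-2. The part of these gaps in the differences between genotypes was not tested.

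**Figure D3:**
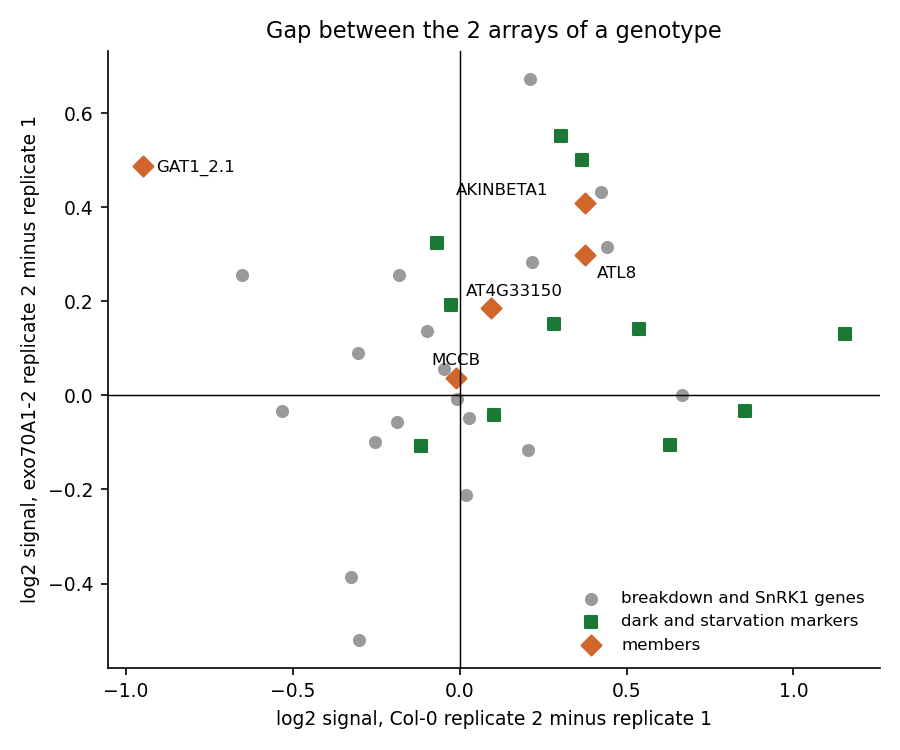
Log2 signal of replicate 2 minus replicate 1 in Col-0 (horizontal) and in exo70A1-2 (vertical) for the 5 genes (orange diamonds), the tested dark and starvation markers (green squares, with MCCA, IVD and ALDH7B4) and the other tested breakdown and SnRK1 genes (grey circles). All 5 diamonds lie above 0 on the vertical axis, and AT2G32150 lies farthest to the right, at 1.15.

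Likeness between genes was measured as the Euclidean distance over the 4 arrays of log2 signals centred on each gene's mean, so that 0 is the same pattern. Among the 5 genes, MCCB and AT4G33150 were closest, at 0.15, followed by AKINBETA1 and AT4G33150 at 0.30. The named genes nearest to MCCB were AT1G80180 (0.064), AT2G43610 (0.066) and AT4G36430 (0.069). Those nearest to AT4G33150 were AT2G14900 (0.070), AT5G03700 (0.081) and AT5G11090 (0.083). AKINBETA1 was nearest to AT2G28200, AT3G22060 and AT1G21000, at 0.11 to 0.12. ATL8 was nearest to AT4G27450 (0.16), whose mean signals were 79.9 (Col-0) and 338 (exo70A1-2), then to AT1G62510 (0.18) and AT5G48490 (0.30). Both Col-0 arrays of ATL8 are under the dim limit, so its distances rest partly on values near background. No likeness is given for GAT1_2.1, whose Col-0 signals lie far under that limit. With 4 arrays, these distances mostly carry the size of the genotype difference and the gap between replicates.

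**Figure D4:**
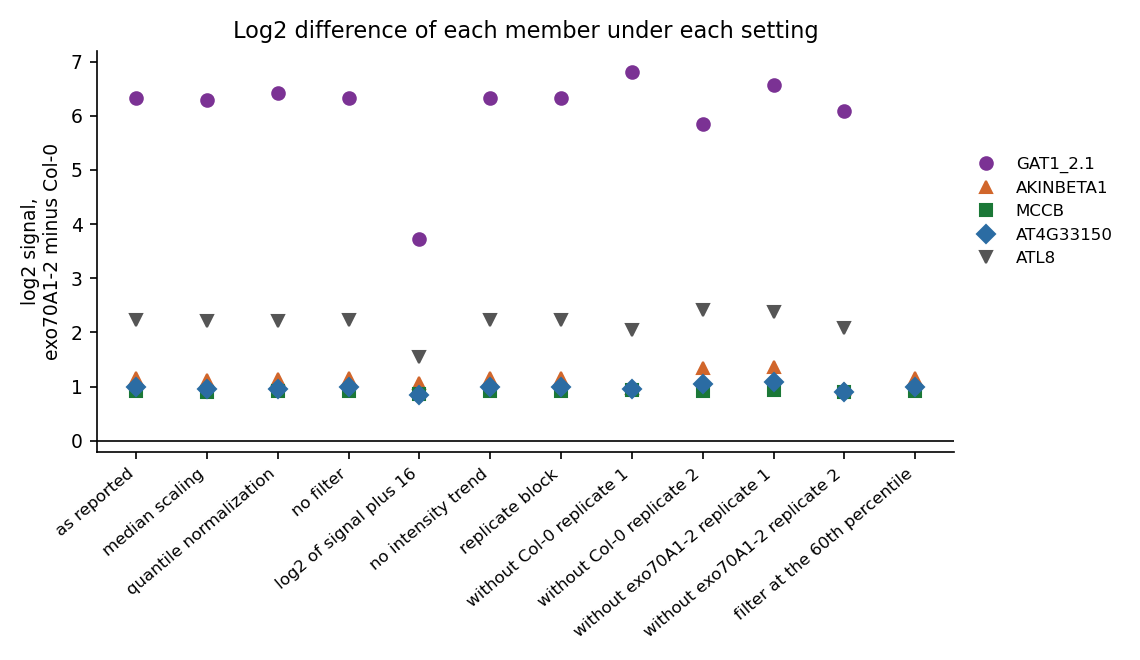
Log2 signal in exo70A1-2 minus Col-0 for the 5 genes as reported and under 11 other settings. GAT1_2.1 ranges from 3.72 with 16 added to each signal to 6.80 without Col-0 replicate 1, and AKINBETA1, MCCB and AT4G33150 stay between 0.84 and 1.37.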

How the data were processed

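The 4 one-colour ATH1 arrays were compared by genotype, taken with the replicate number from the sample titles. The deposited table holds linear intensities, 1 for each probe set on each array. MAS5 and GCOS are named, with no version, in the submitters' processing notes, and the values show that the authors scaled each array to a mean of 100 with 2% trimmed at each end. The number of arrays limits the precision.

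From the table, log2 of the signal was taken, 64 control probe sets were left out, and probe sets at or above the 40th percentile were tested with limma 3.58.1 in R 4.3.3 (lmFit, eBayes with an intensity trend, two-sided). Of 22746 probe sets 13513 had 1 gene, 503 several and 8730 were unnamed here; 13436 matched the RefSeq table of TAIR10.1, used for names and neighbours. Each listed gene is represented by its brightest probe set.

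The 5 genes and the lists were chosen with earlier results of these data known. Genes named are the 5, per list up to 8 that passed by size and up to 6 that did not by brightness, and the 3 nearest in pattern. AT5G09300 was added as the lowest of its list. The nearest genes are left out for GAT1_2.1 because its Col-0 signals are near background. A family of glutamine amidotransferases could not be drawn up, since the tables hold no descriptions. No sequence is shown. Figures were drawn with matplotlib 3.10.9.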

Additional observations from a re-analysis of the deposited data

How the results depend on the processing

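The alternatives were other scalings, filters and variance priors, 16 added to each signal, the replicate number as a block, and leaving out each array, in which case the genotype with 1 array is taken to vary as the other does. Leaving out 1 array gave 577 to 1696 probe sets higher and 396 to 1347 lower in exo70A1-2, both lowest without exo70A1-2 replicate 2. A replicate block gave 2168 higher and 2098 lower probe sets, and without the intensity trend 679 were lower. What same-numbered arrays share is not given by the labels, and replicate differences correlated at 0.28 between the genotypes. With the block 8 breakdown genes and 10 dark markers rose, against 6 and 9, while the probe sets higher over the whole array went from 1165 to 2168. The added genes were AT2G26800 (limma, adjusted p = 0.00283), ALDH6B2 (0.0102) and AT5G19120 (8.42e-05). Over the arrays left out these counts ran from 5 to 7 and from 8 to 10, with 1 breakdown gene and 0 dark markers lower throughout. Of 13 listed genes that passed, 9 did so in every alternative that tested them, all but ETFQO, AT3G15450, AT2G32150 and PPDK, and none reversed. Of those that did not pass, 5 changed sign: with 1 array left out, ETFALPHA ran from -0.017 to 0.24, ETFBETA from -0.0078 to 0.20, ASPGA1 from -0.36 to 0.17 and ASPGB1 from -0.18 to 0.47, and PYK10 stood at 0.033 after quantile normalization. The 60th percentile filter left out GAT1_2.1 and ATL8. Among the 9, it also left out SAG29, MGL and AT5G38710, which had entered the test through their mutant arrays. Their calls were therefore not tried at that filter. With it, 4 of 12 tested breakdown genes and 8 of 10 tested dark markers were higher, while 1 and 0 were lower. The other dim limits and the count without SAG29 were chosen after seeing the data. The cause of these differences was not tested, and low MAS5 signals limit the dim genes.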

Other observations

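Genes next to the 5 on the chromosome, in the gene order of TAIR10.1, could be read in 3 places, chosen after the results were seen. IAA34, beside GAT1_2.1, was dim on all 4 arrays, with signals of 3.23 and 3.35 in Col-0 and 5.57 and 8.56 in exo70A1-2. AT4G33160, beside AT4G33150, went from 39.7 ± 6.47 to 33.3 ± 6.53, a log2 difference of -0.26 that did not pass (limma, adjusted p = 0.478). AT1G76405, beside ATL8, went from 79.6 ± 2.79 to 69.4 ± 5.33, a log2 difference of -0.20 that did not pass (adjusted p = 0.415).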
